A study of Mus musculus with 16 samples.

Results

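Chromatin accessibility was described at 8 genes that write, erase or read the marks by which chromatin can keep a record of an earlier signal: Setd7, Kdm1a, Kdm6b, Ehmt2, Ezh2, Dnmt3a, Tet2 and Asxl1. Their regions were those lying within 10 kb of the gene body among 83972 consensus regions, a consensus region being a stretch of overlapping peaks called in at least 2 of 16 libraries. The 8 genes, of 21883 protein-coding genes, held 60 such regions. The genes were selected on measured values in part, because a region of Setd7 was called at baseline and not after IL-1β, so values of IL-1β against baseline are a description here and carry no test.

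The libraries are ATAC-seq, in which the transposase Tn5 cuts and tags open DNA, from bone marrow of male C57Bl/6 mice. Mature cells bearing Gr1, Ter119, B220, CD4 or CD3 had been removed, and 50000 cells entered each library. The 4 groups of 4 libraries are diabetic with IL-1β, diabetic at baseline, control with IL-1β and control at baseline. Marrow of each of 4 diabetic and 4 non-diabetic mouse samples was split: one portion was lysed at once (baseline) while the other spent 6 h in culture with the inflammatory cytokine IL-1β at 10 ng/mL. Diabetes was induced with streptozotocin, a toxin of insulin-producing cells, which the labels record for the diabetic mice only, so diabetes and the drug cannot be told apart. Nor can IL-1β and the culture it was given in. Ages are not given in the labels, which call the cells haematopoietic stem cells. Of 11 stem and progenitor markers 8 had an open start, 5 of them in all 16 libraries, Kit, Cd34 and Meis1 among them. All 5 granulocyte markers also had an open start, 4 of them in all 16 libraries. So had 0 of 4 B cell, 1 of 4 T cell and 1 of 4 erythroid markers. Of dendritic cell markers 2 of 3 had one, and of monocyte, NK cell and stroma markers 1 of 3 each. The B and T cell genes still held 4 and 7 regions called in all 16 libraries, so a start without a call is not a closed gene.

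Histone methylation is set and removed by opposing enzymes, and some of these marks outlast the signal that placed them. Setd7 adds a single methyl group to histone H3 at lysine 4, and Kdm1a (LSD1) removes methyl groups there. Ehmt2 (G9a) methylates lysine 9, Ezh2 is the catalytic subunit of the Polycomb complex that methylates lysine 27, and Kdm6b (JMJD3) removes the lysine 27 mark. Dnmt3a methylates DNA, Tet2 oxidises methylated cytosine, and Asxl1 is a partner of the enzyme that removes ubiquitin from histone H2A. Mutation of Dnmt3a, Tet2 or Asxl1 in human blood stem cells is a common start of clonal haematopoiesis.

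Promoter sequences were taken from RefSeq (GRCm38.p6), 250 bases before to 50 after the annotated start, for 4 of the 7 members with an entry. Setd7 and Kdm1a are shown because each held a gene-body region whose calls differed between IL-1β and baseline while its start region was called in all 16 libraries. Ezh2 and Ehmt2 are shown because their start regions had the most and the fewest reads, each gene being given by its start region with the most reads. Capitals mark matches on either strand to 6 letter runs: the CCAAT box, the GC box GGGCGG, the E-box CACGTG, the Ets core CCGGAA, the AP-1 site TGANTCA and the cAMP response element TGACGTCA.
Setd7, chr3:51560774-51561073, minus strand: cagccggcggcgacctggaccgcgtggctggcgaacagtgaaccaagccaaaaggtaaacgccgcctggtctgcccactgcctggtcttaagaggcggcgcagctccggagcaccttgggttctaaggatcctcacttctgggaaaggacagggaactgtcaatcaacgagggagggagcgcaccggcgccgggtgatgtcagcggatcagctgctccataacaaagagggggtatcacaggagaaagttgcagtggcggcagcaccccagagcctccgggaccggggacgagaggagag
Kdm1a, chr4:136602674-136602973, minus strand: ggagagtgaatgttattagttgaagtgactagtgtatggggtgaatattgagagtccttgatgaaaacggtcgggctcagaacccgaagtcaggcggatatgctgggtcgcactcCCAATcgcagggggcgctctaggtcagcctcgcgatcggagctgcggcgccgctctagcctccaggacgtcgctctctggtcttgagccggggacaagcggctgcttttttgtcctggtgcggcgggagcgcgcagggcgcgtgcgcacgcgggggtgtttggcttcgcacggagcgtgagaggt
Ezh2, chr6:47594981-47595280, minus strand: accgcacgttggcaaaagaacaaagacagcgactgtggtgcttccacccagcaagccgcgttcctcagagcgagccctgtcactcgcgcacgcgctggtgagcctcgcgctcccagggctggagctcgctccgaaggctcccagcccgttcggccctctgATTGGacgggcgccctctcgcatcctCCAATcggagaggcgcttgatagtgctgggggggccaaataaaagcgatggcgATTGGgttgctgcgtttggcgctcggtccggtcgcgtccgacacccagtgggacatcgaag
Ehmt2, chr17:34898224-34898523, plus strand: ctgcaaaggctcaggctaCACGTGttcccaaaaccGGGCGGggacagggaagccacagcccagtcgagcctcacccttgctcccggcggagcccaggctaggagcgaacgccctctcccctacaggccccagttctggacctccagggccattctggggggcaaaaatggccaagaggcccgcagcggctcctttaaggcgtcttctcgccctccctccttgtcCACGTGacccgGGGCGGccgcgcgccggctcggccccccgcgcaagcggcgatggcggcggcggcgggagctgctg
The Setd7 window held no match to any of the 6 letter runs, at 62.7% GC and 21 CpG. Kdm1a held 1 CCAAT and Ezh2 held 3, and 37.4% of 32851 RefSeq promoters of the same length held at least 1. Ehmt2 held 2 GGGCGG and 2 CACGTG, found in 35.7% and 7.15% of promoters. In Kdm1a and Ezh2 the highest summit of all 16 libraries lay inside the printed window, at a median of 49 and 69 bases before the start. In Ehmt2 it lay inside in 11 of 15 libraries, and in Setd7 in 0 of 16. The Setd7 start region spanned 2012 bp, and its highest summit lay at a median of 1007.5 bp downstream of the annotated start, between 81 and 1034 bp.

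Reads at the highest summit of a region, recovered from the deposited fold and p and scaled so that all libraries have the same median, are called scaled reads below. They are reads over 1 point and are not summed over the length of a region or gene. The highest summit of a region is taken, so a wide region with several summits can still give a higher value. Of the 60 regions, 22 (36.7%) were called in all 16 libraries, against 29.7% of all consensus regions, and 44 lay in the gene body. Dnmt3a held 14 regions, Kdm6b 13, Asxl1 9, Setd7 7, Tet2 7, Ehmt2 5, Ezh2 3 and Kdm1a 2. Of the 60 regions 10 also overlapped the body or the start of another gene, so position alone does not assign them.

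At the starts the order was Ezh2, Asxl1, Kdm6b, Tet2, Kdm1a, Setd7, Dnmt3a and Ehmt2. For Kdm6b no start was used, and the gene-body region with the most reads stands in. Over all 16 libraries Ezh2 averaged 96.9 ± 10.2 scaled reads, Asxl1 92.7 ± 11.8 and Kdm6b 92.3 ± 11.1 (SD, n = 16 each). Tet2 averaged 80.7 ± 7.35, Kdm1a 70.3 ± 5.43, Setd7 53.4 ± 3.96 and Dnmt3a 49.7 ± 6.30 (SD, n = 16 each). Each gene is given here by its start region with the most reads, and of these Ehmt2 was lowest. It had 27.7 ± 3.94 scaled reads in the 15 libraries that called it (SD, n = 15). A further start region of Dnmt3a, chr12:3890887-3892245, was lower still, at 21.6 ± 3.88 in the 15 libraries that called it (SD, n = 15). Ezh2, Asxl1 and Kdm6b could not be ordered beyond their spread: Ezh2 was above Asxl1 in 9 of 16 libraries and Asxl1 above Kdm6b in 8 of 16. Tet2 was above Kdm1a in 15 of 16, Kdm1a above Setd7 in 16 of 16 and Dnmt3a above Ehmt2 in 15 of 15, while Setd7 was above Dnmt3a in 11 of 16. Among 7963 start regions called in all libraries, Ezh2 lay at the 75.2 percentile, Kdm1a at 51.0, Setd7 at 33.2 and Ehmt2 at 9.02. Within 250 bp of the start itself, Setd7 had 47.6 ± 5.45 scaled reads (SD, n = 16) and Dnmt3a 30.2 ± 3.98 (SD, n = 16) at the first of its 3 annotated starts.

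**Figure D1:**
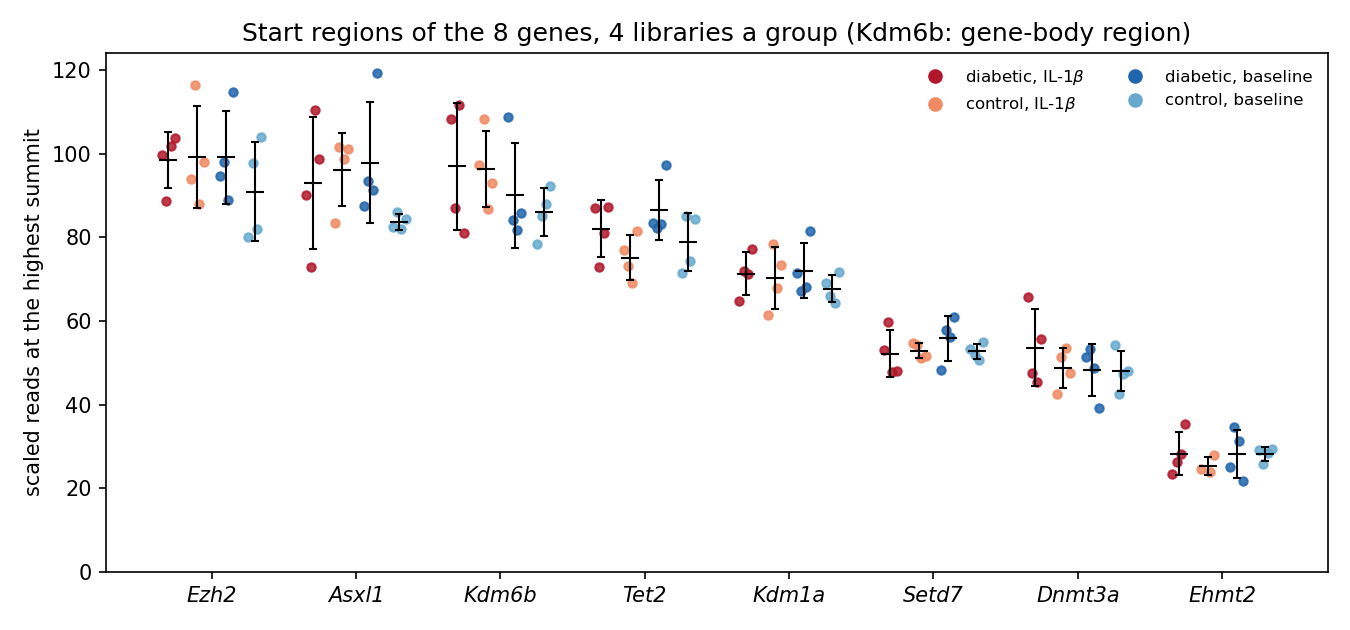
Scaled reads at the highest summit (vertical axis) of the start region of each gene (horizontal axis), by group. Points are libraries, and bars give the mean and SD of 4 libraries (3 for Ehmt2 in control with IL-1β). Ezh2 averages 96.9 and Ehmt2 27.7 scaled reads over all libraries, and the 4 groups of each gene overlap for most genes.

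At Setd7, a 340-bp region in the gene body (chr3:51520680-51521019) was called in 0 of 8 libraries with IL-1β and in 8 of 8 at baseline. It lies 40.0 kb downstream of the start, near the far end of the gene. Of all consensus regions 30 of 83972 (0.0357%) had these calls, and nothing is read from that share since the gene was chosen for it. At baseline the region had 27.2, 21.5, 30.4 and 18.9 scaled reads in diabetic libraries 1 to 4, against 25.9, 35.1, 30.5 and 25.5 in control libraries 1 to 4. The phenotypes overlapped there, and in each library the value lay below that of the next region described. The authors' fold over local background was 4.18 to 5.71.

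A missing call is not a level of 0. At the local background seen at baseline, 2.09 to 7.97 reads, a call in the 8 IL-1β libraries would have needed 8 to 19 reads, or 6.54 to 25.7 scaled reads. The upper part of that range reaches the lower baseline values, so the size of the drop is not fixed by these lists. With peaks of −log10 q of at least 5 only, 7 baseline libraries still called the region. With the same number of peaks from every library 6 did. Both settings only take peaks away, so the 0 calls with IL-1β were fixed in advance and nothing is read from them.

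The 4 Setd7 regions called in all libraries differed by at most 0.10 on the log2 scale between IL-1β and baseline. This and the like differences below hold for libraries scaled to the same region median. With libraries scaled by background, each is lower by 0.27, a shift common to all regions called in every library. The SE given with these differences come from a fit that leaves out the pairing of the portions, and they serve as no test. The region 1.61 kb nearer to the gene's far end (chr3:51518067-51519069) had 61.5, 58.9, 58.9 and 50.7 scaled reads in diabetic libraries with IL-1β, against 69.5, 52.3, 63.3 and 34.9 in diabetic libraries at baseline. Controls had 67.1, 59.6, 60.7 and 58.9 with IL-1β and 62.0, 74.3, 56.2 and 69.7 at baseline. The difference of IL-1β minus baseline was 0.01 ± 0.11 on the log2 scale (SE). At the start region (chr3:51559592-51561603) it was −0.05 ± 0.08 and at the region of the gene body at chr3:51539734-51540237 it was −0.10 ± 0.16. The region at chr3:51510800-51511444, which holds the start of Gm36008, gave −0.10 ± 0.15. Of the 2 remaining regions, chr3:51552902-51553479 was called in 1 IL-1β and 6 baseline libraries and chr3:51554099-51554493 in 4 and 3, at 8.12 to 15.5 scaled reads.

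**Figure D2:**
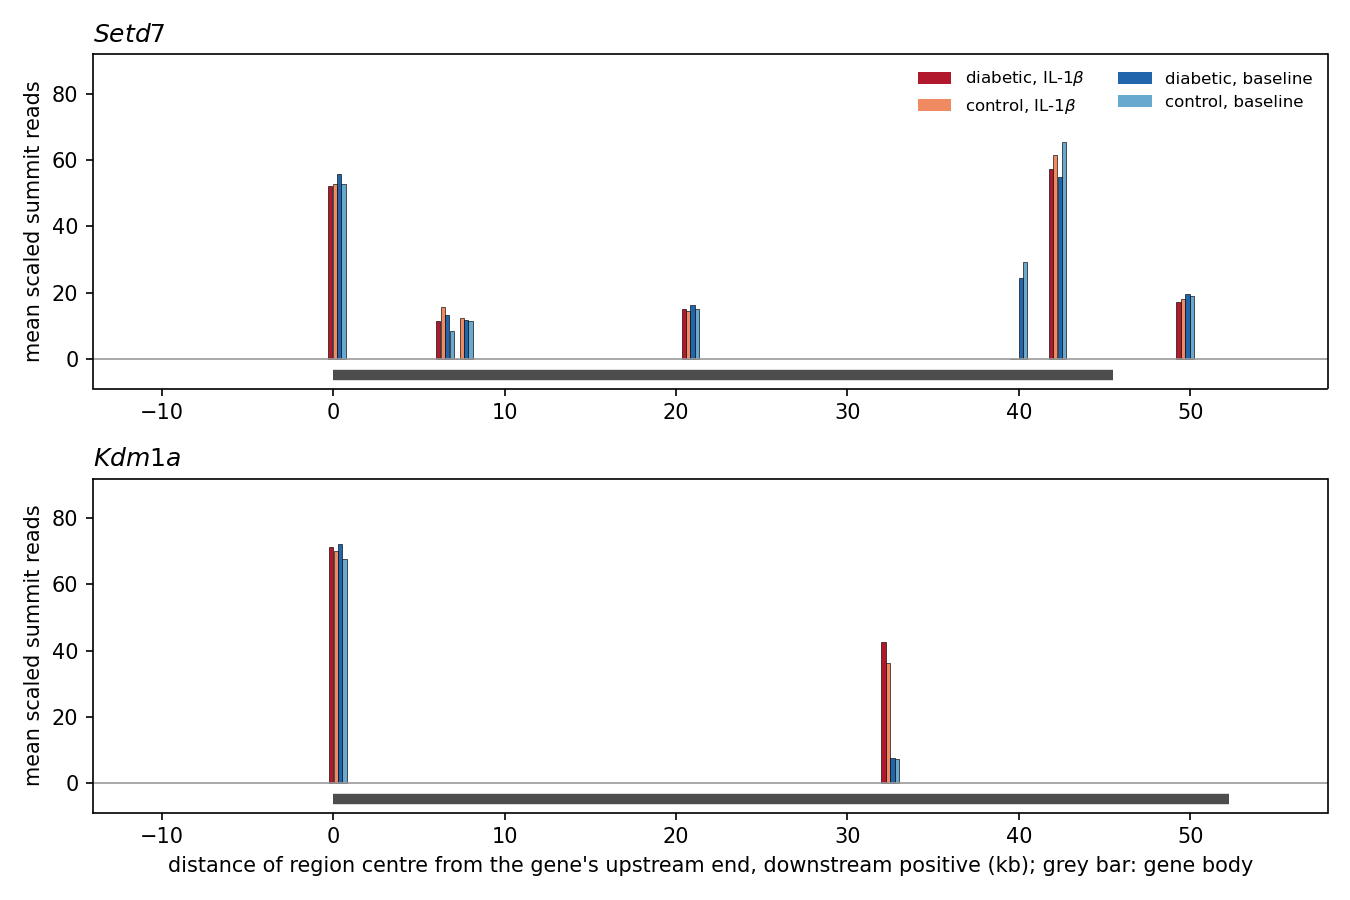
Mean scaled summit reads (vertical axis) of the regions of Setd7 (above) and Kdm1a (below) against the distance of the region's centre from the upstream end of the gene (horizontal axis, kb), by group, over the libraries that called the region. The grey bar is the gene body, and an empty slot means that no library of the group called the region, as in both IL-1β groups at the Setd7 region 40.0 kb downstream.

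The second region of Kdm1a was called in more libraries with IL-1β than at baseline. This gene-body region (chr4:136569990-136570592) was picked after its values had been seen. It was called in 8 of 8 libraries with IL-1β and in 3 of 8 at baseline, and 207 of 83972 regions (0.247%) had 8 calls with IL-1β and at most 3 at baseline. Scaled reads with IL-1β were 30.8, 50.5, 41.7 and 46.9 in diabetic libraries and 48.3, 24.4, 34.5 and 38.2 in control libraries. The 3 baseline libraries with a call had 7.48 (diabetic), 7.85 and 6.68 (control), below every IL-1β value. A call in the other 5 would have needed 6 to 10 reads, or 4.06 to 14.5 scaled reads. The Kdm1a start region moved by 0.02 ± 0.07 (log2, SE) between IL-1β and baseline.

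At Kdm6b the region chr11:69411665-69411934, also picked after its values had been seen, was called in 8 libraries with IL-1β and 3 at baseline. Scaled reads with IL-1β were 63.7, 62.6, 62.6 and 57.0 in diabetic and 52.3, 79.9, 73.8 and 63.0 in control libraries, against 42.1 in the 1 diabetic and 40.0 and 46.0 in the 2 control baseline libraries with a call. It lies among other high peaks, where local background was 16.3 to 30.8 reads and a call in the other 5 baseline libraries would have needed 31 to 51 reads. Less can therefore be read from a missing call here than at Kdm1a. The neighbouring region chr11:69410255-69411476, called in all 16 libraries, was higher with IL-1β in 3 of 4 diabetic and 4 of 4 control mouse samples, by 0.26 ± 0.09 (log2, SE). The region at chr11:69418658-69419252 was higher in 3 of 4 diabetic and 4 of 4 control samples, by 0.19 ± 0.07. With background scaling both differences are below 0, as at all 22 member regions called in every library.

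**Figure D3:**
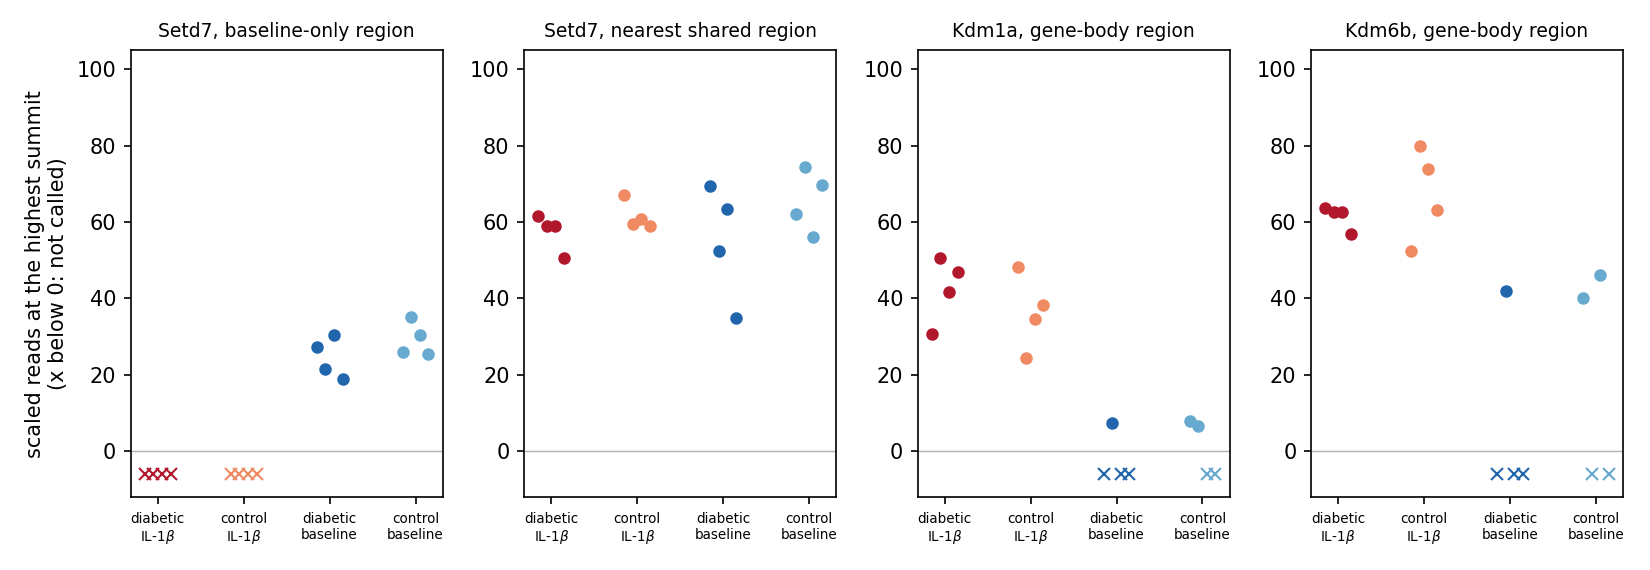
Scaled reads at the highest summit (vertical axis) per library in 4 regions, by group; a cross below 0 marks a library without a call. The Setd7 baseline-only region has no call with IL-1β while the nearest shared region of Setd7 stays between 34.9 and 74.3 scaled reads, and the Kdm1a region has 24.4 to 50.5 with IL-1β and 6.68 to 7.85 in the 3 baseline libraries with a call.

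The start regions of Ezh2, Tet2 and Asxl1 and the Dnmt3a start region with the most reads were called in all 16 libraries. That of Ehmt2 was called in 7 of 8 with IL-1β and 8 of 8 at baseline, as was the lower Dnmt3a start region. The median of IL-1β minus baseline over the 22 regions called in all libraries was 0.05 on the log2 scale, against 0.03 over all 24955 such regions. With background scaling these medians were −0.22 and −0.24. The start region of Ezh2 differed by 0.06 ± 0.08, of Dnmt3a by 0.08 ± 0.10, of Tet2 by −0.07 ± 0.07, of Asxl1 by 0.06 ± 0.08 and of Ehmt2 by −0.07 ± 0.13 (SE). The lowest of the 22 values was −0.24 ± 0.10, at chr17:34894014-34894699, which lies 3.76 kb outside Ehmt2 and holds the start of Zbtb12. It was higher with IL-1β in 0 of 4 diabetic and 1 of 4 control mouse samples. The Asxl1 gene-body region chr2:153350548-153351243 was higher with IL-1β in 4 of 4 diabetic and 4 of 4 control samples, by 0.23 ± 0.11. A weak Ezh2 gene-body region, chr6:47562504-47562746, was called in 0 IL-1β and 5 baseline libraries, at 6.28 to 11.7 scaled reads. In Tet2 the region chr3:133525580-133526019 was called in 5 IL-1β and 8 baseline libraries. It had 12.7, 10.3 and 17.2 scaled reads in 3 diabetic and 7.36 and 7.23 in 2 control libraries with IL-1β, against 12.02 to 24.7 in diabetic and 10.2 to 16.7 in control libraries at baseline. In bulk marrow fewer cells with an open site and less opening per cell cannot be told apart.

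Diabetic and control marrow were then compared, separately in each state and, as a difference of the IL-1β changes, between states. In all 3 comparisons limma called 0 of 24955 regions (0%) at an adjusted p of 0.05, and therefore 0 of the 22 member regions. In simulated reads the baseline comparison recovered 35 of 100 changes of 0.5 on the log2 scale and 89 of 100 changes of 1. A count of 0 therefore does not show that differences of the size seen here are absent. At an unadjusted p below 0.05, 1 of 22 member regions passed with IL-1β, against 1086 regions (4.35%) overall. At baseline 1 of 22 passed, against 2943 (11.8%), and for the difference of the changes 0 of 22, against 416 (1.67%). These counts depend on single libraries. With IL-1β the count over all regions was 662 without diabetic IL-1β library 4 and 1991 without diabetic baseline library 4, which enters through the shared estimate of the spread. At baseline it was 5706 without diabetic baseline library 1, when 4 of 22 member regions passed, 1828 without control baseline library 1 and 1051 without diabetic baseline library 4. For the difference of the changes it was 977 without diabetic baseline library 1 and 629 without diabetic baseline library 3, and the lowest count was 331. None of these fits called a region after adjustment, the smallest adjusted p being 0.085. With regions called in at least 12 libraries, 3 of 29 passed with IL-1β (4.84% of 40970), 2 of 29 at baseline (12.5%) and 0 of 29 for the difference (2.33%). With regions called in all 8 libraries of a state, 3 of 25 passed with IL-1β (7.54% of 28290) and 2 of 27 at baseline (7.52% of 31824). Adjusted, these fits called 0 regions. For the 22 members the median difference, diabetic minus control, was 0.02 with IL-1β (15 higher, 7 lower) and 0.08 at baseline (16 higher, 6 lower), on the log2 scale. Over all regions it was 0.04 with IL-1β (60.1% higher) and 0.07 at baseline (61.0% higher). Scaling by background turned these medians round, for the members to −0.23 with IL-1β and −0.14 at baseline and for all regions to −0.21 and −0.15. This scaling lowers the difference of every region called in all libraries by the same amount, 0.25 with IL-1β and 0.22 at baseline. The sign of a small difference between phenotypes is therefore set by the scaling.

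One library stood apart at baseline. Diabetic baseline library 4 had the lowest background, 0.856 reads, and the lowest median of shared summits, 27 reads, against up to 1.71 and 58 in the others. Its start regions stood 0.26 above the mean of all libraries on the log2 scale (median of 7963 regions), while its other shared regions stood 0.03 below. No other library's start regions stood more than 0.13 above that mean, but those of control baseline libraries 1 and 3 stood at −0.14 and −0.15. How far the baseline median of start regions below rests on any 1 library was not tested. Among members it was the highest of its group at 5 of 7 start regions, with 61.1 scaled reads at Setd7, 81.4 at Kdm1a and 119 at Asxl1. It was the lowest of its group at 7 of 16 other shared regions. At baseline the median difference of diabetic minus control was 0.13 over all 7963 shared start regions, against 0.0063 over the other shared regions, and with IL-1β 0.055 against 0.023. Start-region differences at baseline with every library kept are therefore to be read against 0.13. Baseline differences of regions called in all libraries are given below also without library 4.

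Of the 7 Setd7 regions 4 were fitted, and 0 had an unadjusted p below 0.05 in either state. At its start region the libraries had 53.0, 59.8, 47.8 and 48.1 scaled reads in diabetic and 54.8, 54.1, 51.2 and 51.7 in control marrow with IL-1β. At baseline they had 48.3, 57.9, 56.1 and 61.1 in diabetic and 53.4, 51.8, 50.8 and 55.0 in control marrow. The groups overlapped in both states. The difference was −0.03 with IL-1β (95% interval −0.25 to 0.20) and 0.08 at baseline (−0.15 to 0.30), or 0.034 without diabetic library 4. The region chr3:51518067-51519069 was −0.29 at baseline (limma, unadjusted p = 0.0686, adjusted p = 0.429), and −0.089 without diabetic library 4. Without diabetic library 1 it was −0.42 (limma, unadjusted p = 0.00962, adjusted p = 0.122) and with the deposited fold −0.040. With background scaling, which lowers all regions alike, it was −0.51 (limma, unadjusted p = 0.0174, adjusted p = 0.364). At the baseline-only region, in a fit of regions called in all 8 baseline libraries that was added after the data were seen, the difference was −0.27 ± 0.20 (SE; limma, unadjusted p = 0.206, adjusted p = 0.607). The Kdm1a region called in all IL-1β libraries differed by 0.24 ± 0.18 with IL-1β in the like fit (unadjusted p = 0.181, adjusted p = 0.774). Its start region differed by 0.02 ± 0.10 with IL-1β and by 0.09 ± 0.10 at baseline, or 0.026 without diabetic library 4.

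Among the 22 regions called in all libraries the largest differences were at Asxl1 and Dnmt3a, and none passed the adjusted threshold. The Asxl1 region chr2:153350548-153351243 in the gene body, 4.72 kb downstream of the start, had 70.02, 68.2, 68.7 and 58.2 scaled reads in diabetic and 72.8, 89.3, 77.3 and 82.6 in control libraries with IL-1β. At baseline it had 65.4, 66.4, 58.5 and 32.0 in diabetic and 69.9, 79.3, 70.4 and 69.7 in control libraries. All 4 diabetic libraries lay below all 4 controls in each state. The difference was −0.28 ± 0.16 with IL-1β (SE; limma, unadjusted p = 0.0909, adjusted p = 0.970) and −0.44 ± 0.16 at baseline (unadjusted p = 0.0114, adjusted p = 0.423). Without diabetic library 4 the baseline difference was −0.19. With the deposited fold the differences were −0.092 with IL-1β and −0.24 at baseline. With background scaling, which lowers all regions alike, they were −0.53 (limma, unadjusted p = 0.00975, adjusted p = 0.674) and −0.66 (0.00136 and 0.276). The p depends on the libraries that give the spread. In limma fits of regions called in all 8 libraries of a state, the unadjusted p was 0.0105 with IL-1β (adjusted p = 0.557) and 0.0392 at baseline (adjusted p = 0.587). Groups lay apart in 1 of 22 member regions with IL-1β, against 902 of 24955 regions (3.61%), and in 2 of 22 at baseline, against 1094 (4.38%). Diabetic libraries lay below controls in both states in 24 regions (0.0962%), a count made after this region had been seen, and both states come from the same mouse samples.

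The second baseline region without overlap was the start of Asxl1, in the other direction. It had 87.6, 93.5, 91.3 and 119 scaled reads in diabetic against 82.4, 86.0, 81.9 and 84.4 in control libraries, a difference of 0.22 ± 0.12 (SE; limma, unadjusted p = 0.0824, adjusted p = 0.435). The median over all shared start regions was 0.13, likewise with every library kept. Without diabetic library 4 the Asxl1 start differed by 0.12, and the median for that case is not given here. With background scaling and every library the Asxl1 start gave −0.0053. With IL-1β the groups overlapped at 90.2, 72.9, 110 and 98.8 in diabetic and 83.4, 102, 98.7 and 101 in control libraries. By number of regions called per 1000 in the library, Asxl1 had 0.0818 ± 0.0038 in diabetic and 0.0969 ± 0.0062 in control marrow at baseline (SD, n = 4 each; two-sided exact permutation p = 0.0286, the smallest that 4 against 4 allow, adjusted p = 0.964). Of 11765 genes 298 (2.53%) had an unadjusted p below 0.05 at baseline and 202 (1.72%) with IL-1β, and 0 (0%) passed after adjustment. Leaving out 1 library, the count ran from 196 (without diabetic library 4) to 443 at baseline. With IL-1β it ran from 138 to 354 (without control library 1). Kdm1a, with 2 regions, was under the minimum of 3 and was not tested.

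At Dnmt3a the gene-body region chr12:3870862-3871497 had 21.2, 37.4, 41.7 and 41.8 scaled reads in diabetic and 29.4, 14.9, 20.2 and 33.1 in control libraries with IL-1β. At baseline it had 23.2, 29.9, 24.0 and 39.3 in diabetic and 19.6, 23.4, 21.0 and 21.6 in control libraries. The groups overlapped, and the difference was 0.56 ± 0.25 with IL-1β (SE; limma, unadjusted p = 0.0335, adjusted p = 0.970) and 0.41 ± 0.25 at baseline (unadjusted p = 0.109, adjusted p = 0.447). The IL-1β value was 0.34 without control library 2 and 0.79 without diabetic library 1, and the baseline value 0.26 without diabetic library 4. With the deposited fold they were 0.26 with IL-1β and 0.14 at baseline, and with background scaling 0.31 and 0.19. Its start region differed by 0.13 ± 0.14 with IL-1β and by 0.00 ± 0.14 at baseline, or 0.095 without diabetic library 4. Among regions not called in every library, Dnmt3a chr12:3855730-3856479 differed by 0.55 ± 0.21 at baseline (SE; limma over regions called in at least 12 libraries, unadjusted p = 0.0132, adjusted p = 0.359). It had 18.1, 29.9, 19.2 and 21.8 scaled reads in diabetic and 14.9, 11.7, 16.9 and 16.7 in control libraries, without overlap. In the same fit Asxl1 chr2:153356656-153357185 differed by −0.62 ± 0.20 with IL-1β (unadjusted p = 0.0054, adjusted p = 0.956), at 17.0, 16.8, 11.04 and 13.9 in diabetic and 22.9, 23.0, 23.8 and 19.6 in control libraries. These 2 regions were picked after their values had been seen.

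For Tet2 the start region was higher in diabetic marrow by 0.13 ± 0.10 with IL-1β and by 0.14 ± 0.10 at baseline, neither past the threshold (adjusted p = 0.970 and 0.499). Without diabetic library 4 the baseline value was 0.078. Its largest difference among regions called in all libraries was at chr3:133463282-133463567, 0.35 ± 0.27 at baseline (SE; limma, unadjusted p = 0.213, adjusted p = 0.518), or 0.023 without control library 1 and 0.27 without diabetic library 4. In the fit of regions called in at least 12 libraries, with missing libraries left out, chr3:133525580-133526019, whose values are given above, differed by 0.84 ± 0.32 with IL-1β (unadjusted p = 0.0160, adjusted p = 0.956) and by 0.45 ± 0.25 at baseline (unadjusted p = 0.0888, adjusted p = 0.442). This was the largest difference of any member region fitted. The IL-1β value rests on 3 diabetic and 2 control libraries.

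Of the 21 regions of the histone enzymes Kdm6b, Ehmt2 and Ezh2, 11 were called in at least 12 libraries and fitted, and 0 of these had an unadjusted p below 0.05 in either state. Kdm6b's region with the most reads differed by 0.00 with IL-1β (95% interval −0.24 to 0.24) and by 0.06 at baseline (−0.18 to 0.30). Its largest difference among regions called in all libraries was at chr11:69410255-69411476, −0.21 ± 0.13 with IL-1β and −0.16 ± 0.13 at baseline. The IL-1β value was −0.46 with background scaling, which lowers all regions alike (limma, unadjusted p = 0.0273, adjusted p = 0.674). The baseline value was −0.028 without diabetic library 4 and −0.30 without diabetic library 1 (unadjusted p = 0.0219, adjusted p = 0.158). The Ehmt2 gene-body region chr17:34911936-34912425 differed by 0.28 ± 0.21 with IL-1β and 0.23 ± 0.21 at baseline, or 0.35 without diabetic library 4, and its start region by 0.14 ± 0.19 and −0.02 ± 0.18 in the fit of regions called in at least 12 libraries. The Ezh2 start region, which also holds the start of F830010H11Rik, differed by 0.00 with IL-1β (−0.24 to 0.23) and by 0.13 at baseline (−0.10 to 0.36), or 0.054 without diabetic library 4. The Ezh2 gene-body region chr6:47565570-47566027, called in 4 IL-1β and 6 baseline libraries, was not tested. With IL-1β it had 15.9 and 11.4 scaled reads in 2 diabetic and 8.996 and 10.3 in 2 control libraries. At baseline it had 24.3, 17.6 and 27.6 in 3 diabetic and 7.85, 10.9 and 7.44 in 3 control libraries. The phenotypes did not overlap among the libraries with a call. Diabetic baseline library 1 and diabetic IL-1β libraries 1 and 2 had no call and may lie in the range of the controls. The region was picked after its values had been seen, and how many of all regions are like it was not counted. No member region was called in all 4 libraries of one phenotype and none of the other, in either state. Of all regions 68 (0.081%) were with IL-1β and 234 (0.279%) at baseline.

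**Figure D4:**
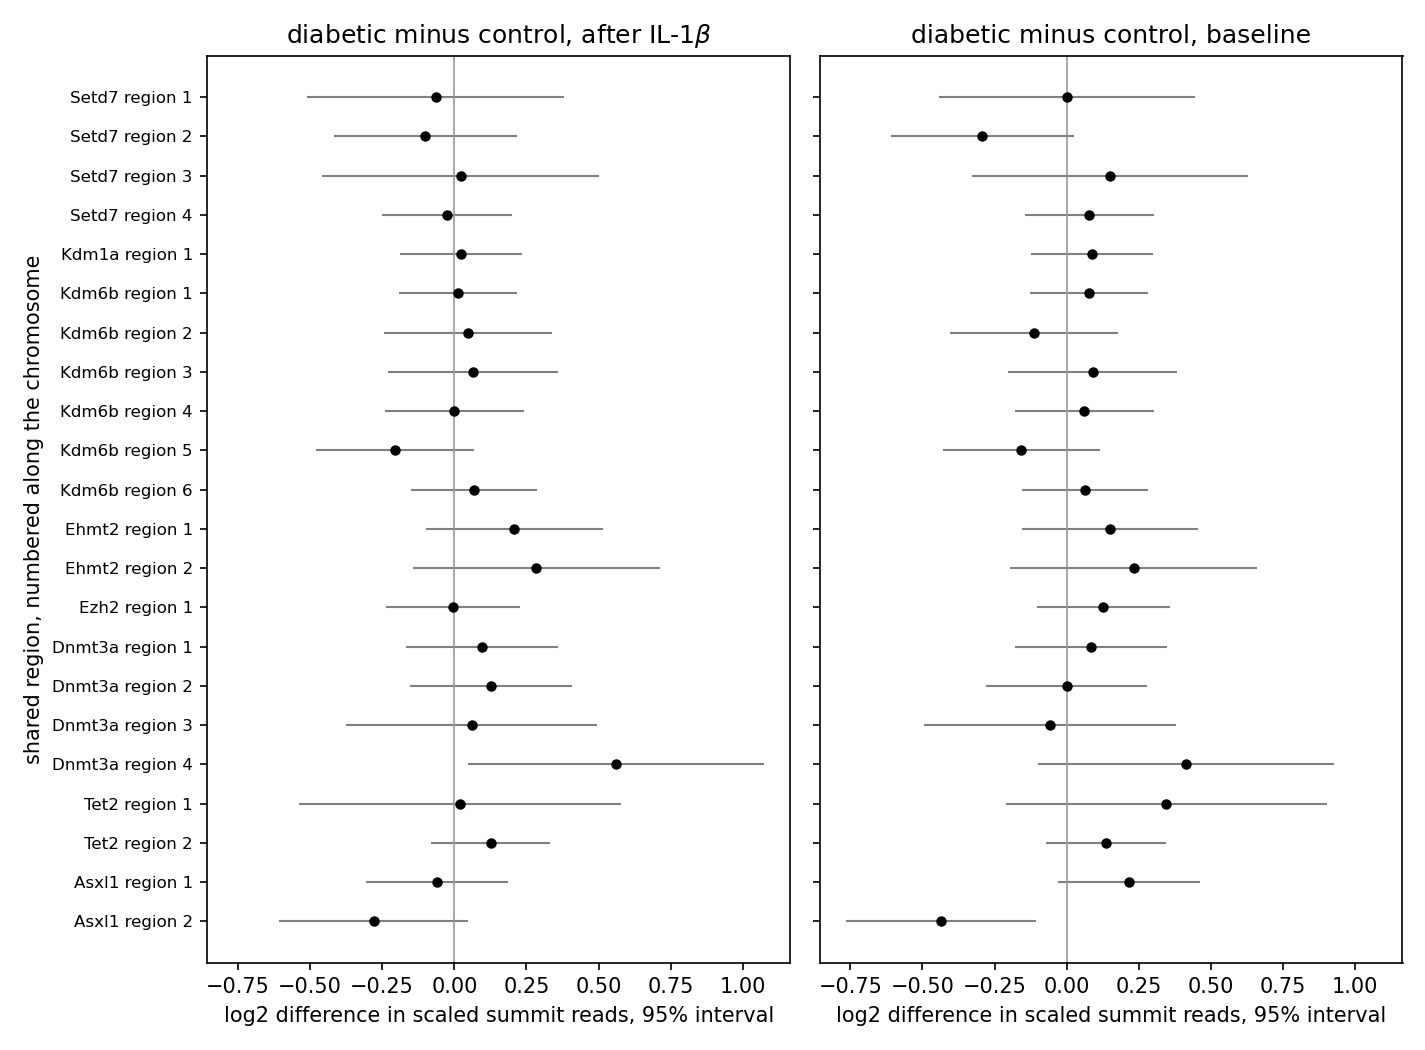
Diabetic minus control differences in scaled summit reads (horizontal axis, log2) at the 22 member regions called in all 16 libraries (vertical axis, numbered along the chromosome within each gene), with IL-1β (left) and at baseline (right). Points are limma estimates and lines 95% intervals; the intervals without 0 are those of Dnmt3a region 4 with IL-1β (0.56) and Asxl1 region 2 at baseline (−0.44).

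Further chromatin genes were read in the same way. A list of 60 further writers, erasers and partners of these marks, from Kmt2a and Kdm5a to Tet3 and Bap1, held 347 regions, of which 132 were called in all libraries, and 0 passed the adjusted threshold in any of the 3 comparisons. At an unadjusted p below 0.05, 2 were higher and 3 lower in diabetic marrow with IL-1β, where 2.94% of all regions were higher and 1.41% lower. At baseline 7 were higher and 4 lower, against 7.08% and 4.72% of all regions. Of the list 2 regions were on or off by phenotype, 1 of 347 with IL-1β, against 68 of all 83972 regions (0.081%), and 1 of 347 at baseline, against 234 (0.279%). Nothing is read from a count of 1. A region of Kdm5a, a lysine 4 demethylase, was called in 0 of 4 diabetic and 4 of 4 control libraries at baseline, and one of Setdb1, a lysine 9 methyltransferase, in 0 of 4 and 4 of 4 with IL-1β.

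The regions whose scaled reads followed the Setd7 start region most closely over the 16 libraries were looked for among the other 24954 regions called in all libraries, and for each protein-coding gene the closest region was kept. The 5 closest were regions of Dtd2 (Pearson r = 0.887), Ccdc9b (0.797), Rab12 (0.779), Setd4 (0.776) and Ikbkg (0.767). These values describe 16 libraries that share depth and composition, and the highest of many correlations is high by selection.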

How the data were processed

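Peak lists of 16 ATAC-seq libraries were used. Per the labels' protocols, Tn5 cut the nuclei, size selection took out fragments over 1200 bp and 50-bp single reads were taken. The submitters' processing notes name MACS2 2.1.1, Bowtie2 2.2.6, edgeR, DiffBind 2.4.8, FastQC 0.11.3 and Trim Galore 1.8 and the build mm10, without roles. Read shifting and duplicate removal are not given in the sources used here; both change reads per summit. The deposited columns are the authors' peak score (not used further), the fold ratio over local background, −log10 p, −log10 q and the summit position, 1 list per library.

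Reads n and background λ were recovered from fold = (n + 1) / (λ + 1) and the Poisson −log10 p, within 0.001, for at least 99.9987% of summits per library. Lists held 37543 to 72525 peaks and the lowest called summits 5 to 7 reads, so weaker sites are missing; library totals are unknown, and no interval for counting error is given. Peaks were merged on 1 bp overlap or touching. RefSeq's GRCm38.p6 tables gave gene bodies, starts and promoters; its chromosomes have the coordinates of mm10. Kdm6b had no promoter entry.

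Log2 reads at the highest summit of the 24955 regions called in all 16 libraries, scaled to equal medians, were fitted in limma 3.58.1 (R 4.3.3; 4 group means, trended variance) with Benjamini-Hochberg adjustment over all regions at 0.05. Regions per gene were tested by exact permutation (70 assignments) for genes with at least 3 regions. Python 3.11.15 with scipy 1.17.1 was used. The computations were run on simulated data, where limma missed most changes of 0.5 on the log2 scale. Named regions are each member's start region, its largest difference between phenotypes in each state and every on or off region, with all regions of Setd7. Members and lists were chosen with earlier results of these data known. Permutation p-values measure the spread between 4 mouse samples per phenotype. Limma p-values of fits with all 4 groups use 1 spread shared by the groups, so both portions of a mouse sample enter as separate libraries. With the mouse as a block the correlation of the portions was 0.22. Fits of regions called in all 8 libraries of a state use that state's libraries only.

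Both portions of one mouse sample share a replicate number, since the design text describes a split, and the numbers therefore pair IL-1β and baseline libraries of one phenotype. Their deviations from the group means had correlations of 0.40, 0.19, -0.04 and 0.33 in diabetic mice 1 to 4 and of 0.42, 0.36, 0.01 and 0.07 in control mice 1 to 4. Between phenotypes an equal number does not pair anything.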

Additional observations from a re-analysis of the deposited data

Results flagged for a closer look

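Of 69 groups of 4 libraries at named regions, 7 held a library far from the other 3, with a gap to the nearest that took most of the group's range (Dixon's test); chance alone marks about 1 in 20 groups. Diabetic baseline library 4 had 97.4 scaled reads at the Tet2 start region, the highest of its group. Diabetic baseline library 1 had 109 at Kdm6b chr11:69409252-69410025, also the highest. Control baseline library 1 had 5.50 at Tet2 chr3:133463282-133463567, the lowest of its group. Control IL-1β library 1 had 83.4 at the Asxl1 start region, again the lowest. At Asxl1 chr2:153350548-153351243, diabetic IL-1β library 4 was lowest at 58.2 and control baseline library 2 highest at 79.3. Diabetic IL-1β library 4 was also lowest, at 57.0, at Kdm6b chr11:69411665-69411934.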

How the results depend on the processing

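With the mouse as a replicate block, 0 regions were called in the 3 comparisons of phenotype, as without it, and the block changed no other call. Member regions called stayed at 0 under every alternative run and with each library left out in turn. With the deposited fold in place of reads, 1 region of all was called at baseline. With lists of equal length, 107 regions, not 68, were on or off by phenotype with IL-1β. With background scaling the members' median of IL-1β minus baseline was −0.22, not 0.05. The fit of regions called in all 8 libraries of a state was added after the data were seen and called 0.

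Differences between phenotypes that passed no threshold changed sign as follows (diabetic minus control, log2). With background scaling at baseline, the start regions gave −0.14 (Setd7), −0.13 (Kdm1a), −0.094 (Ezh2), −0.085 (Tet2) and −0.0053 (Asxl1), Setd7 chr3:51510800-51511444 −0.22, Setd7 chr3:51539734-51540237 −0.071 and Kdm6b chr11:69409252-69410025 −0.16. With IL-1β they gave −0.23 (Kdm1a), −0.12 (Dnmt3a) and −0.12 (Tet2), Setd7 chr3:51539734-51540237 −0.23, Kdm6b chr11:69409252-69410025 −0.25 and Tet2 chr3:133463282-133463567 −0.23. With cyclic loess at baseline, Setd7 chr3:51510800-51511444 gave −0.047, Kdm6b chr11:69409252-69410025 −0.058 and the Ezh2 start −0.0013. With IL-1β, Setd7 chr3:51539734-51540237 gave −0.085, Kdm6b chr11:69409252-69410025 −0.035 and Tet2 chr3:133463282-133463567 −0.10.

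With the deposited fold at baseline, Setd7 chr3:51510800-51511444 gave −0.074, the Kdm1a start −0.024, Kdm6b chr11:69410255-69411476 0.11 and the Dnmt3a start 0.077. With IL-1β, the Setd7 start gave 0.072, Setd7 chr3:51539734-51540237 −0.038, Tet2 chr3:133463282-133463567 −0.041 and the Asxl1 start 0.0036. With stricter peaks, Kdm6b chr11:69409252-69410025 gave −0.0051 with IL-1β. Leaving out 1 library, signs changed at baseline within −0.10 to 0.23 (Setd7 chr3:51510800-51511444), −0.033 to 0.29 (Setd7 chr3:51539734-51540237), −0.034 to 0.10 (Kdm6b chr11:69409252-69410025) and −0.057 to 0.095 (Dnmt3a start). With IL-1β they changed within −0.093 to 0.015 (Setd7 start), −0.16 to 0.011 (Setd7 chr3:51510800-51511444), −0.14 to 0.19 (Setd7 chr3:51539734-51540237) and −0.039 to 0.080 (Kdm1a start). They also changed within −0.072 to 0.082 (Kdm6b chr11:69409252-69410025), −0.058 to 0.076 (Ezh2 start), −0.12 to 0.16 (Tet2 chr3:133463282-133463567) and −0.15 to 0.052 (Asxl1 start). The causes were not tested, beyond what each alternative changes by construction. Sites under 5 to 7 reads cannot be seen in these lists.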
